A study of Mus musculus with 78 samples.

Results

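Of 48870 Bio-EZH1 regions on chromosomes 1 to 19, 137 carried a peak at 12, 24 and 32 h after synchronization and hardly any at 16, 20 and 28 h. The peaks of the 18 Bio-EZH1 libraries were merged into regions. A region was chosen by presence, with a peak in 8 or 9 of the 9 libraries at 12, 24 and 32 h and in 0 or 1 of the 9 libraries at 16, 20 and 28 h. These 137 regions (0.28% of all) are called the member regions below. The opposite pattern, peaks at 16, 20 and 28 h and hardly any at 12, 24 and 32 h, was met by 0 regions (0%). Every list of 16, 20 and 28 h (8539 to 11293 peaks) was shorter than every list of 12, 24 and 32 h (11604 to 19827). This left less room for the opposite pattern, so the 0 by itself shows no direction. Because presence in the Bio-EZH1 lists selected the member regions, their Bio-EZH1 values are given as a description without a test, and tests were made on the other profiles only.

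EZH1 is one of the alternative catalytic subunits of Polycomb repressive complex 2 (PRC2), which methylates lysine 27 of histone H3, and it is the form that prevails in cells that no longer divide, such as myotubes. SUZ12 is a core subunit that the complex needs for its stability, and H3K27me3 is the trimethyl mark that PRC2 leaves on chromatin around silent developmental genes. In mammals PRC2 is mostly found at CpG islands, stretches rich in CpG dinucleotides that often hold a transcription start site (TSS).

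The cells were C2C12, mouse myoblasts that the study differentiated to myotubes. They were synchronized by a pulse of concentrated horse serum and collected at 12, 16, 20, 24, 28 and 32 h. Each time point had 3 biological replicates for each of 4 profiles, Bio-EZH1, SUZ12, H3K27me3 and HA-EZH1, which gives 72 peak lists. Bio-EZH1 is EZH1α with an Avi tag, biotinylated by the BirA enzyme in a stable line whose own Ezh1 was knocked down by shRNA, so it reports the reintroduced isoform, and the same line gave the SUZ12 chromatin. The labels of the other 2 profiles name C2C12 cells, and those of HA-EZH1 give no antibody or modified line. No list of cells with BirA alone was used here. The SUZ12 lists carry the abbreviation strep in their names, while the paper used streptavidin beads for Bio-EZH1 and an antibody for SUZ12. Groups here go by the labels. Had these lists been exchanged, the member regions would have been chosen on SUZ12, and the values given for these profiles would swap.

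The member regions differed in sequence. In the following stretches of 200 bases around the highest Bio-EZH1 summit (plus strand, GRCm38/mm10) the CpG dinucleotides are in capitals. The first 3 were picked from the member regions at a promoter that are rich in CpG. The last 2 come from intergenic member regions whose fold enrichment was next highest after Egr3.
Egr3, chr14:70078340-70078539: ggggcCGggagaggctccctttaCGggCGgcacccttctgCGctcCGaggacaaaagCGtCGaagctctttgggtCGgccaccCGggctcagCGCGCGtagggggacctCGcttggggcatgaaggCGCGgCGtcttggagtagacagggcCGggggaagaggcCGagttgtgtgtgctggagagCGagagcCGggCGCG
Fzd4, chr7:89404698-89404897: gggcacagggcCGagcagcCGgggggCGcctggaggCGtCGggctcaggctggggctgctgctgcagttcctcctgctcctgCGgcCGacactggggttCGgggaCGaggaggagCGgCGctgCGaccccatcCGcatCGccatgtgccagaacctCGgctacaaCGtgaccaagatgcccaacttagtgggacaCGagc
Casc4, chr2:121867318-121867517: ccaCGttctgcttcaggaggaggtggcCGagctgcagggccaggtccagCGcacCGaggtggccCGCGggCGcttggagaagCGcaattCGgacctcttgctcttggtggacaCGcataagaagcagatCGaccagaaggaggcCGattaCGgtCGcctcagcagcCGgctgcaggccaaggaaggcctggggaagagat
Ccr6, chr17:8257775-8257974: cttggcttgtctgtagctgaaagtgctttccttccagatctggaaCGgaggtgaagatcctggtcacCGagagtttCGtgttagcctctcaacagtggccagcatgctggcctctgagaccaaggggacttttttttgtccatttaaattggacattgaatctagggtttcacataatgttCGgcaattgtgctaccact
Tdrd3, chr14:87564520-87564719: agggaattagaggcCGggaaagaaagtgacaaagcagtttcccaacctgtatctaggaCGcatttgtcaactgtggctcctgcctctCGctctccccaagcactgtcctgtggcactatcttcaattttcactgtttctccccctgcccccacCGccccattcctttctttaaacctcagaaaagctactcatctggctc
The stretch at Egr3 holds 22 CpG dinucleotides, that at Fzd4 17 and that at Casc4 15, against 4 each in the stretches nearest to Ccr6 and Tdrd3. Promoter members ranged widely, as the stretch of the same length holds 3 at Cacng7, 5 at Ffar3 and 25 at Stat5b, all at a promoter. Egr3 encodes a zinc finger transcription factor of the immediate early response, Fzd4 a receptor for Wnt ligands and Norrin, and Ccr6 a chemokine receptor. Tdrd3 encodes a Tudor protein that binds methylated arginine.

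Bio-EZH1 at the member regions was weak in every library. Fold enrichment here is the ratio of the ChIP signal at a peak to the background that the peak caller models. The 1231 Bio-EZH1 peaks in member regions had folds of 1.78 to 5.87. Over the libraries of 12, 24 and 32 h, the median fold of a member region was 3.03 at the middle of all members, against 2.80 over all regions, 2.97 over 1360 other regions with a peak in 8 to 10 of the 18 lists, and 6.55 over the 2916 regions present in all 18 lists. Among the members, 74 had a median fold over 3 and 3 had one over 4.

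The Egr3 region had the highest median fold. It spans chr14:70077062-70079000 at the TSS of Egr3, with its summit in an intron. Its fold was 5.05, 4.57 and 4.41 at 12 h, 2.43, 3.24 and 2.71 at 24 h and 4.38, 5.49 and 3.75 at 32 h in replicates 1 to 3, against 2.18 in the only list of 16, 20 and 28 h with a peak (16 h replicate 2). All 3 libraries of 24 h lay below all 6 of 12 and 32 h. The region nearest to Ccr6 (chr17:8257333-8258178, 21290 bp from the TSS) is the shortest member with 846 bp. Its fold was 4.14, 3.59 and 3.74 at 12 h, 3.52, 4.28 and 5.87 at 24 h and 3.13, 4.32 and 4.22 at 32 h, against 3.01 in 20 h replicate 1, and no time point stood below the others. The region nearest to Tdrd3 (chr14:87563827-87565790) lay in an intergenic stretch 147188 bp from the TSS, and its fold had a median of 4.02 over 8 libraries (2.80 to 4.74), against 3.31 in 28 h replicate 2.

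**Figure D1:**
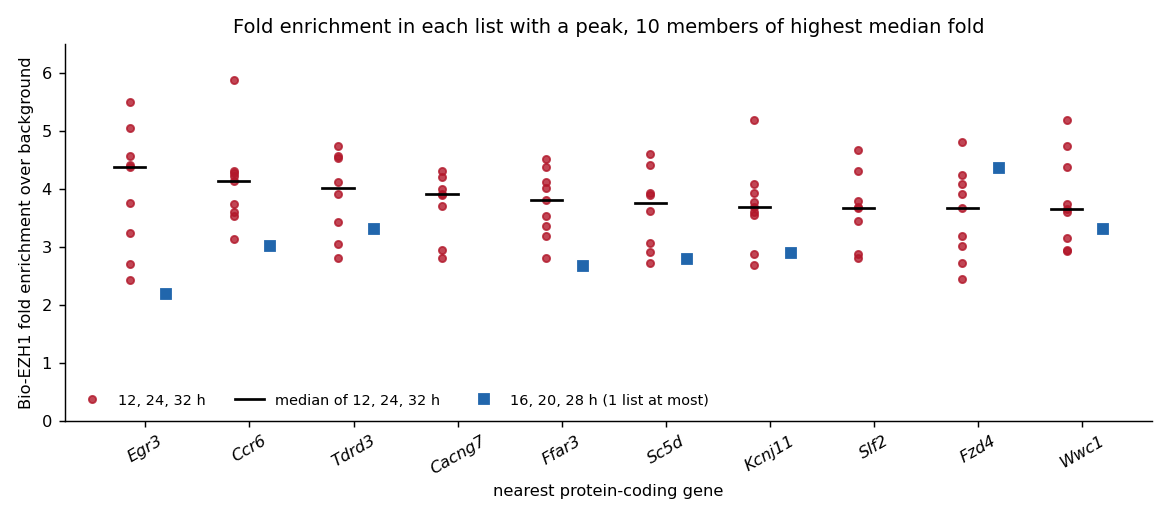
Bio-EZH1 fold enrichment (vertical axis, ratio to background) at the 10 member regions of highest median fold, named by the nearest protein-coding gene. Circles are the libraries of 12, 24 and 32 h with a peak, the bar is their median, and squares are the single library of 16, 20 or 28 h with a peak, where there was one. Egr3 reaches 5.49 and spreads down to 2.43, and at Fzd4 the single 16 h peak (4.35) lies above the median (3.66).

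The other 7 of the 10 highest members had medians of 3.66 to 3.90. They lay within 1000 bp of the TSS of Cacng7 (a γ subunit of calcium channels and AMPA receptors), Ffar3 (a receptor for short-chain fatty acids), Fzd4 and Wwc1 (a scaffold of the Hippo pathway), in Abcc8 (the sulfonylurea receptor, next to its channel partner Kcnj11) and Tecta (an inner ear matrix protein), and 48051 bp from Slf2. Fold in the single library of 16, 20 and 28 h was not always lower. At Fzd4 (chr7:89404453-89405549) the 9 libraries of 12, 24 and 32 h had a lowest fold of 2.45, a median of 3.66 and a highest of 4.81, against 4.35 in 16 h replicate 3. At Stat5b (chr11:100849826-100851150), which encodes a transcription factor downstream of growth hormone, the folds were 1.89, 3.56 and 4.55, against no peak at 16, 20 and 28 h. The peak that breaks the pattern at Fzd4 thus exceeded 8 of the 9 peaks that make it.

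Whether a region met the rule was set by few libraries. The 137 members divide into 15 with peaks in 9 and 0 lists, 31 in 9 and 1, 33 in 8 and 0 and 58 in 8 and 1 (12, 24 and 32 h first). Just outside the rule lay 117 regions in 8 and 2 lists, 55 in 9 and 2 and 141 in 7 and 1. The strongest of these were nearest to Nr2f1, Foxd4 and Tlx1, transcription factors of development, with median folds of 4.17, 4.15 and 4.07 and 2 lists each at 16, 20 and 28 h, so members and regions across the threshold overlapped in fold. By time point, a peak in all 3 libraries was found at 75 members at 12 h, 119 at 24 h and 126 at 32 h, and at 0 members at 16, 20 and 28 h. The 0 was fixed by the rule, which allows 1 list at most at these times.

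List length of the Bio-EZH1 profile, and its fold at the regions present in all 18 lists, moved with the same contrast. The lists held 11604 to 19827 peaks at 12, 24 and 32 h (median 16107), against 8539 to 11293 at 16, 20 and 28 h (median 9229), without overlap. Median fold at the 2916 regions present in all 18 lists was 5.93 to 7.27 at 12, 24 and 32 h and 4.90 to 5.60 at 16, 20 and 28 h, also without overlap. Over all peaks of a list the median fold went the other way. It was 2.81 to 3.32 at 12, 24 and 32 h (median 3.07) and 3.10 to 3.45 at 16, 20 and 28 h (median 3.34), with overlap. A library had a peak at 103 to 136 of the members at 12, 24 and 32 h, against 5 to 20 at 16, 20 and 28 h, a contrast built in by the rule. When every list was shortened to its 8539 strongest peaks, 19 regions met the rule and 11 of the 137 members were among them. These were the regions nearest to Zfp618, Lmtk2, Fzd4, Npc1l1, Wwc1, Foxa1, Smoc1, Krt8, Ccr6, 1700001C19Rik and Slf2. Member peaks lay around the middle of the lists of 12, 24 and 32 h, with a median percentile by fold of 38.8 to 58.2 per library, against 17.1 to 37.5 for the few at 16, 20 and 28 h. Depth of sequencing is unknown from the lists, and its part in the pattern was not tested.

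**Figure D2:**
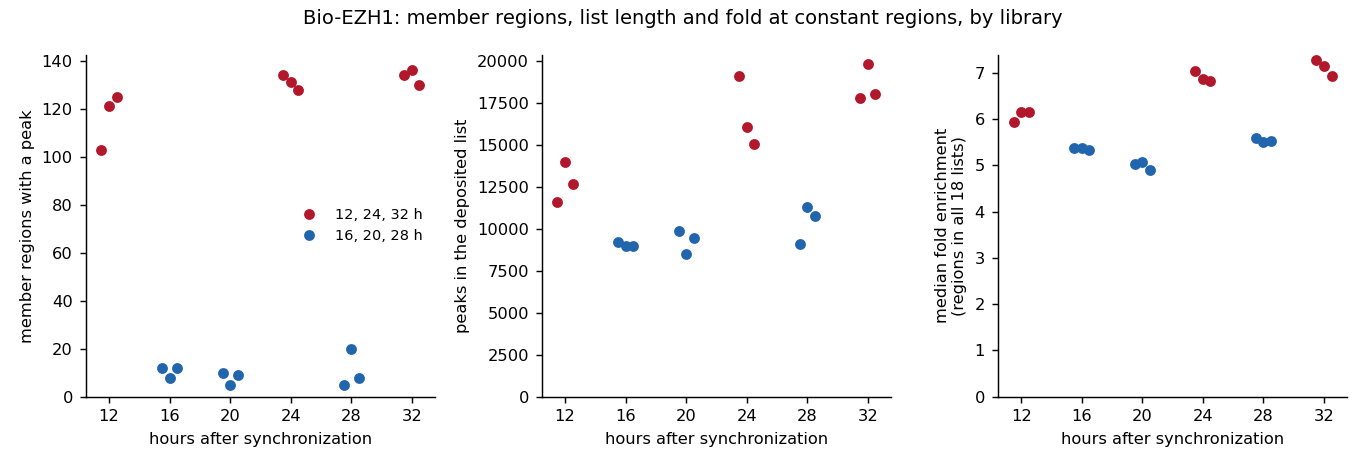
Bio-EZH1 by library and time (hours after synchronization). The panels plot the number of member regions with a peak, the number of peaks in the list, and the median fold enrichment at the regions present in all 18 lists; each point is 1 library, red for 12, 24 and 32 h and blue for 16, 20 and 28 h. All 9 red points lie above all 9 blue points in each panel, as with 103 to 136 against 5 to 20 members, a contrast built in by the rule.

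The member regions lay away from promoters more often than the regions that were always bound. A TSS of any annotated gene was within 1000 bp of 31 members (22.6%), against 13.3% of all regions, 18.8% of the other regions in 8 to 10 lists and 58.4% of the regions in all 18 lists. Another 31 members overlapped an exon, 37 lay within an intron and 38 (27.7%, against 43.1% of all regions) were intergenic. By the highest summit alone, 66 members were intronic, 51 intergenic, 9 in an untranslated region, 6 in a coding exon and 5 in an exon of a non-coding gene. The median distance to a protein-coding TSS was 16489 bp for members, against 25635 bp for all regions. Members had a median length of 2033 bp (846 to 5212), against 515 bp over all regions, 1969 bp over the other regions in 8 to 10 lists and 5771 bp over those in all 18 lists. The longest were nearest to Plxna1 (a semaphorin receptor), Thy1 (a surface glycoprotein of neurons and lymphocytes) and Tmem117.

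Members often lay beside a region that was bound at all times. The nearest region present in all 18 lists was at a median of 27907 bp, against 88136 bp for all regions and 44994 bp for the other regions in 8 to 10 lists, and 84 members (61.3%) had one within 50000 bp, against 40.6% of all regions. The region in Pax2, which encodes a paired box factor of kidney and eye, was 2001 bp from such a region, and that near Adra2a, an adrenergic receptor gene, 2225 bp. The Tdrd3 region was the reverse case, at 10405000 bp. By chromosome, 18 members lay on chromosome 5 (13.1%, against 6.72% of all regions), 13 on chromosome 11 and 12 on chromosome 15. The nearest genes numbered 134, with a pair of members each at Sel1l3, Otof (an exocytosis protein of inner hair cells) and Stx18.

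The sequence at the summit was closer to that of all regions than to that of the always bound regions. In the 500 bp at the highest summit members had a median of 8 CpG dinucleotides, against 6 over all regions, 7 over the other regions in 8 to 10 lists and 27 over those in all 18 lists. The same 500 bp were searched on both strands for 4 motifs. Both E-boxes share their outer letters and cannot match the same bases, and each motif was counted on its own. The motif CACGTG, the E-box bound by the clock factors CLOCK and BMAL1, was in 13 members (9.49%, against 6.63% of all regions). CAGCTG, an E-box of myogenic factors, was in 32 (23.4%, against 23.8%), TGACTCA, the site of AP-1, in 7 (5.11%, against 6.68%), and GAGAGA, a purine repeat linked to Polycomb sites in Drosophila, in 60 (43.8%, against 41.0%). These are matches of letters and not sites of binding.

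The members at promoters differed from the rest in their medians, in sequence and in the other profiles, but were mixed. A protein-coding TSS lay within 1000 bp of 22 members. Their median was 30.5 CpG dinucleotides in 500 bp, against 8 in the other 115 members. The ranges overlapped, with 1 to 75 at a protein-coding TSS and 2 to 65 in the other members. They had a SUZ12 peak in a median of 4.5 of the 18 SUZ12 lists, none of them in all 18 and 4 in no list, against a median of 16 in the other members, where 50 were in all 18. For H3K27me3 the median was 9 of 18 lists, with 6 in all 18 and 7 in none, against 18 in the other members, with 98 in all 18 and 3 in none. The same division was present in the other regions of 8 to 10 Bio-EZH1 lists, with medians of 5 SUZ12 lists at a protein-coding TSS and 17 away from one, and 15 and 18 H3K27me3 lists, so it is not particular to the members. In the regions present in all 18 lists both medians were 18 in both profiles.

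**Figure D3:**
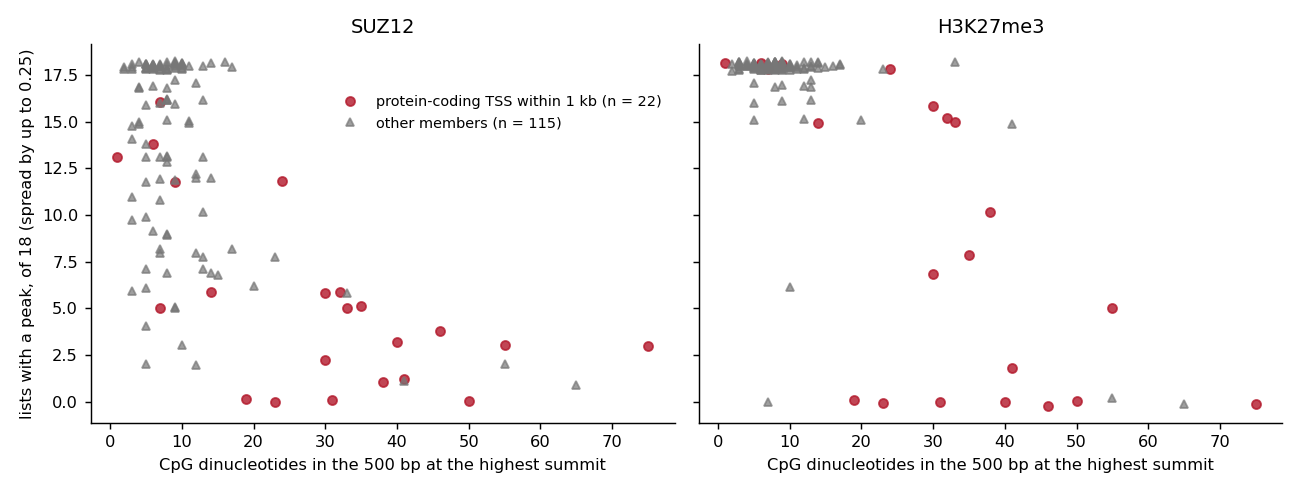
CpG dinucleotides in the 500 bp at the highest summit of each member region (horizontal axis) and the number of SUZ12 and H3K27me3 lists, of 18, with a peak (vertical axis, points spread by up to 0.25). Red circles are the 22 members with a protein-coding TSS within 1000 bp and grey triangles the other 115. The promoter members reach the highest CpG numbers and have a median of 4.5 SUZ12 lists, and the other members gather at 18 lists of H3K27me3.

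No H3K27me3 list had a peak at 10 members (7.30%, against 13.6% of all regions). Of the 10 members without an H3K27me3 peak in any list, 8 had the TSS of a gene within 1000 bp, and their median CpG number was 43, against 8 in the members with a list. They lay at Egr3, Stat5b, Casc4, Cgnl1 (a protein of cell junctions), Adgrl3 (a latrophilin adhesion receptor), Ppm1l (a protein phosphatase), Pitpnc1 (a phosphatidylinositol transfer protein), in Prr7, at Krt8 (a keratin of simple epithelia), and in Nrg1 (a growth factor of nerve and muscle) at the TSS of Gm26578. Cgnl1, Adgrl3, Ppm1l and Pitpnc1 had no SUZ12 list either. At Egr3 SUZ12 was found in 1 list of 12 h and in 3 of 28 h, at Stat5b in 3 of 28 h and at Casc4 in 3 of the 18 lists. The 8 at a TSS met the Bio-EZH1 rule with no H3K27me3 peak and with 0 to 4 SUZ12 lists, while Krt8, not at a TSS, had 13 SUZ12 lists. At a protein-coding TSS, 31.8% of members had no H3K27me3 list, against 28.6% of all regions and 17.9% of the other regions in 8 to 10 lists. For SUZ12 these shares were 18.2%, 29.9% and 0.54%. Lack of the mark at a TSS was thus about as frequent among members as among all regions.

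Other promoter members had more of the mark. Fzd4 had H3K27me3 in 8 lists and SUZ12 in 5, namely 3 of 12 h and 2 of 28 h. Wwc1 had 16 and 6, and Tbc1d4, which encodes a regulator of glucose transporter traffic in muscle, had 2 and 1. Ffar3, Cacng7, Robo4 (a receptor of endothelium), Psmf1 (a proteasome inhibitor), Stra6l and Tdrkh (a Tudor protein of the piRNA pathway) had H3K27me3 in all 18 lists. The 200 bases at their highest summits held 5, 3, 4, 0, 1 and 15 CpG dinucleotides, in this order. At Clic5, Syt15 and Prr36 it was found in 15 lists each, at Rasl11b in 10, at C1ql4 in 7 and at C130074G19Rik in 5. The promoter members thus covered the whole range of the mark.

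The nearest genes were compared with lists of gene groups. The lists are partial, and Cacng7, for example, is not in that of ion channels. Ion channels and transmitter receptors were nearest to 6 members (4.38%, against 1.93% of all regions and 2.43% of the other regions in 8 to 10 lists). These were Kcnj11, Cacna2d2 and Cacna1g (subunits of calcium channels), Scn8a (a sodium channel), Grm4 (a glutamate receptor) and Adra2a. Developmental transcription factors were nearest to 4 (2.92%, against 3.52%), namely Pax2, Meox1 (a homeobox factor of somites), Foxa1 (a forkhead factor of endoderm) and Barx1. Axon guidance and synapse adhesion genes were nearest to 2 (1.46%, against 1.08%), Nrxn2 and Plxna1. Extracellular matrix genes were nearest to 1 (0.73%, against 0.82%), Col6a1. Hox genes, Polycomb subunits, cadherins, cell cycle genes, morphogens, muscle structural genes, myogenic regulators and housekeeping genes were nearest to 0 members. Over all regions their shares were 0.08%, 0.21%, 0.51%, 0.14%, 0.98%, 0.42%, 0.15% and 0.002%, in this order. At such small shares a count of 0 does not set the members apart. Of the clock and clock output genes, Nfil3, which encodes a repressor of output genes, had the nearest protein-coding TSS to 1 member (0.73%, against 0.22%), but at 132980 bp and across an intron of Ror2, a Wnt receptor, where the region lies. At this region (chr13:53114053-53116511) the fold had a lowest value of 2.90, a median of 3.09 and a highest of 4.25 over 9 libraries, against 3.44 in 16 h replicate 3. Genes that the study called activated targets were nearest to 6 members (4.38%, against 4.08%) and its repressive targets to 8 (5.84%, against 4.41%). The study chose these target lists from nascent RNA of synchronized wild-type cells at times of the same course. Activated targets had their highest level at 16 h and repressive targets their lowest at 24 h.

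The developmental factors among the nearest genes differed in how SUZ12 and H3K27me3 stood at their regions. The region 30552 bp from Foxa1 (chr12:57515194-57516364) had Bio-EZH1 folds of 2.83 to 4.17 in 8 libraries of 12, 24 and 32 h, against no peak at 16, 20 and 28 h. The 32 h libraries (4.17, 3.72 and 3.77) lay above all those of 12 and 24 h there, SUZ12 was in all 18 lists and H3K27me3 in 6. The region 22830 bp from Meox1 (chr11:101917204-101919188) had a lowest fold of 2.23, a median of 3.22 and a highest of 3.84 at 12, 24 and 32 h, with SUZ12 and H3K27me3 in all 18 lists. In Pax2 (chr19:44789998-44793807) the folds were 2.72, 3.14 and 3.56, with H3K27me3 in 18 lists and SUZ12 in 13. Near Barx1 H3K27me3 was in 17 lists and SUZ12 in 2, so these 4 regions ranged widely in both profiles.

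Other named members had Bio-EZH1 folds in the same low range. At promoters, Rasl11b had a lowest fold of 2.23, a median of 3.27 and a highest of 5.31 at 12, 24 and 32 h, and Robo4 had 2.57, 3.34 and 4.11. Tbc1d4 had 2.37, 2.96 and 4.47, and Adgrl3 had 2.08, 2.97 and 3.32. In Abcc8 the region nearest to Kcnj11 (chr7:46134952-46137440) had 2.69, 3.68 and 5.18, against 2.88 in 16 h replicate 3. Plxna1, the longest member (chr6:89210677-89215888), had the lowest fold of any member peak, with 1.78, 2.64 and 3.41. The longest member was thus also among the weakest in fold.

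SUZ12 was present at nearly all member regions but did not follow the Bio-EZH1 contrast. A SUZ12 peak was found in 1 or more lists at 133 members (97.1%, against 73.0% of all regions and 99.9% of the other regions in 8 to 10 lists) and in all 18 at 50 (36.5%, against 11.5% and 41.5%). At 12 h 82.7% ± 2.6 of the members had a SUZ12 peak, followed by 55.2% ± 2.9 of them at 16 h, 69.3% ± 3.9 of them at 20 h and 66.7% ± 3.6 of them at 24 h (SD over 3 libraries). Later the shares were 92.7% ± 2.9 for 28 h and 49.4% ± 2.3 for 32 h. The highest share was thus at 28 h, where Bio-EZH1 was in 5 to 20 members per library, and the lowest at 32 h, where it was in 130 to 136. The other regions in 8 to 10 Bio-EZH1 lists had the highest and lowest shares at the same times, 97.7% at 28 h and 58.6% at 32 h. SUZ12 was in more lists at 12, 24 and 32 h than at 16, 20 and 28 h at 14 members, in fewer at 50 and in as many at 73. Over all regions the share was likewise highest at 28 h (44.7%) and lowest at 32 h (26.7%). The SUZ12 lists held 21425 to 40379 peaks, and the part of list length in these shares was not tested.

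**Figure D4:**
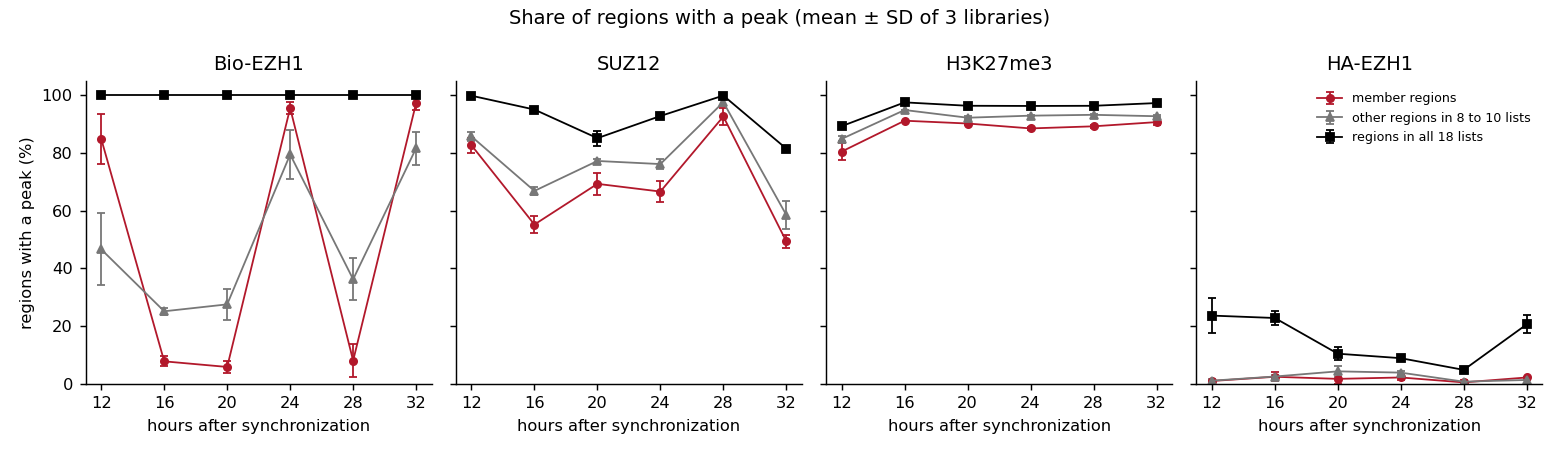
Share of regions with a peak (percent, mean ± SD of 3 libraries) over hours after synchronization for the 4 profiles. Red circles are the 137 member regions, grey triangles the 1360 other regions in 8 to 10 Bio-EZH1 lists and black squares the 2916 regions in all 18. The alternation of Bio-EZH1 in members was built in by the rule; for SUZ12 the members run highest at 28 h (92.7%) and lowest at 32 h (49.4%), and for H3K27me3 lowest at 12 h (80.5%).

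Presence was tested region by region with Fisher's exact test on the number of libraries with a peak, 9 against 9, in regions with a peak in 3 to 15 lists. For SUZ12, 61 members could be tested, and 0 were called higher and 0 lower at 12, 24 and 32 h after Benjamini-Hochberg adjustment, where 0% of the 19991 regions tested were called in either direction. At an unadjusted p under 0.05, 0 members were higher and 1 was lower, against 192 and 398 regions. The member was that in Slc17a9, a vesicular nucleotide transporter gene, with a SUZ12 peak in 0 of 9 lists at 12, 24 and 32 h and in 6 of 9 at 16, 20 and 28 h (p = 0.00905, adjusted p = 1, Fisher's exact test). The test with replicate number as a block called 0 members too. The libraries of a time point are not independent time points, and with 3 against 3 time points an exact test cannot go below 0.10. At a region with a peak in 3 or 15 lists, Fisher's exact test cannot go below p = 0.206, so no call was possible there. At other regions the adjustment over 19991 regions left little room for a call, so the 0 cannot decide whether SUZ12 presence changed.

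SUZ12 fold was tested with limma at the 50 members that had a SUZ12 peak in all 18 lists, after each library was centred on its median, and 3 were higher and 1 lower at 12, 24 and 32 h. Of the 5597 regions tested 4.75% were called higher and 12.5% lower. The count depended on the time points: without the 16 h libraries 7 members were higher and 10 lower, where 9.94% and 21.8% of regions were, and without the 12 h libraries 7 were higher and 0 lower, where 9.28% and 21.9% were. The member in an intron of Sel1l3 (chr5:53179014-53181263) had mean folds of 3.28 ± 0.31, 4.28 ± 1.06 and 3.83 ± 0.84 at 12, 24 and 32 h, against 2.63 ± 0.34, 3.29 ± 0.62 and 2.32 ± 0.28 at 16, 20 and 28 h (SD, n = 3). Its log2 difference was 0.54 ± 0.13 (SE, limma adjusted p = 0.00776), and single libraries of the groups overlapped. The limma call was lost without the 28 h or the 32 h libraries (adjusted p = 0.0741 and 0.0771).

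The other called members were lost when certain single libraries were left out. The region in Abcc2, an organic anion transporter gene, had a log2 difference of 0.56 ± 0.17 (SE, limma adjusted p = 0.0340), with 6.77, 10.3 and 6.38 at 12, 24 and 32 h, against 7.39, 3.90 and 5.21 at 16, 20 and 28 h, and adjusted p was 0.292 without 20 h and 0.297 without 24 h. That call was also lost without any 1 of 12 h replicate 3, 16 h replicate 1, 20 h replicate 1, 24 h replicate 1 or 3, 28 h replicate 1 or 3, or 32 h replicate 1 or 2 (adjusted p = 0.0518 to 0.0734). The region in Cpb2 nearest to Zc3h13, which encodes a subunit of the RNA m6A methyltransferase, had 0.44 ± 0.13 (adjusted p = 0.0269), lost without 24 h or 28 h (adjusted p = 0.251 and 0.327) and without any 1 of 20 h replicate 1, 24 h replicate 2, 28 h replicate 2 or 32 h replicate 3 (adjusted p = 0.0508 to 0.0590). Ccr6 was the lower one, with −0.42 ± 0.13 (adjusted p = 0.0393). Its SUZ12 fold was 2.30, 4.27 and 2.86 at 12, 24 and 32 h, against 3.86, 5.54 and 3.72 at 16, 20 and 28 h, and without 12 h the adjusted p was 0.406. It was lost without 13 of the 18 single libraries (adjusted p = 0.0503 to 0.0824) and kept without 12 h replicate 1, 16 h replicate 2, 20 h replicates 2 or 3 and 28 h replicate 1, and with replicate number as a block adjusted p was 0.0524. Uncentred, 2 members were higher and 4 lower, where 2.81% and 20.1% of regions were. Leaving out single libraries left 1 to 7 members called in all, with 1 when 20 h replicate 1 and 7 when 20 h replicate 3 was left out.

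H3K27me3 was in all 18 of its lists at 104 members (75.9%), against 44.7% of all regions and 77.1% of the other regions in 8 to 10 lists. It had a peak in 1 or more lists at 127 members (92.7%, against 86.4% and 96.5%). The share of members with a peak was 80.5% ± 2.9 at 12 h and 88.6% to 91.2% at the later time points, so it did not alternate with Bio-EZH1. The number of lists was the same in both groups of times at 116 members, lower at 12, 24 and 32 h at 20 and higher at 1. Fisher's exact test could be made at 12 members, and it called 0 higher and 0 lower (0% of 12667 regions in either direction; at an unadjusted p under 0.05, 0 members in either direction against 123 regions higher and 454 lower). The test with replicate number as a block also called 0 members.

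H3K27me3 fold was lower at 12, 24 and 32 h at most members tested, and the 12 h libraries had the lowest folds. Of 104 members tested with limma, 60 (57.7%) were lower and 20 (19.2%) higher, where 35.1% and 37.2% of the 21827 regions tested were lower and higher. The median log2 difference was −0.10 over members and 0.01 over all regions, and the regions in all 18 Bio-EZH1 lists had shares close to those of the members (57.5% lower and 20.0% higher). The other regions in 8 to 10 lists had 40.2% lower and 32.6% higher. Median fold of the members tested was 2.25 to 2.36 in the 12 h libraries and 3.54 to 4.21 in the libraries of all later times, while all regions tested had 2.55 to 2.62 and 3.36 to 3.88. The members thus lay below all regions at 12 h and above them later. The H3K27me3 lists of 12 h were also the longest (63751 to 70797 peaks, against 45120 to 50366 later), and the part of this in the result was not tested. Without the 12 h libraries 46 of 120 members were called, 35 lower and 11 higher, where 17.8% and 16.7% of regions were. Without centring, 97 members were lower and 0 higher, where 83.8% and 1.21% of regions were.

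**Figure D5:**
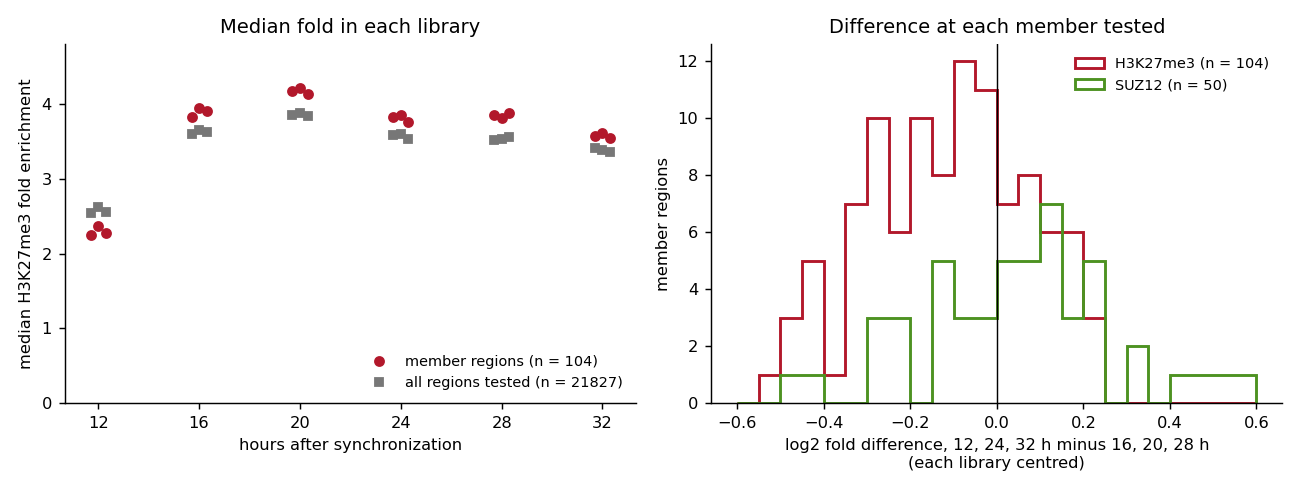
Left, median H3K27me3 fold enrichment of each library over hours after synchronization, at the 104 member regions tested (red circles) and at all 21827 regions tested (grey squares). Right, number of members by their log2 difference, 12, 24 and 32 h minus 16, 20 and 28 h, after each library was centred, for H3K27me3 (red, 104 members) and SUZ12 (green, 50 members). At 12 h the members lie at 2.25 to 2.36, below all regions, and at all later times above them.

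The 5 lower members of smallest p were those of Jph3, Grm4, Nrxn2, Aldh1b1 and Pax2. In an intron of Jph3, a junctophilin that links the plasma membrane to the endoplasmic reticulum, H3K27me3 fold was 1.74 ± 0.018, 5.74 ± 0.13 and 5.35 ± 0.145 at 12, 24 and 32 h, against 6.17 ± 0.12, 6.66 ± 0.14 and 5.85 ± 0.13 at 16, 20 and 28 h (SD, n = 3). The log2 difference was −0.50 ± 0.017 (SE, limma adjusted p = 8.85e-13). Grm4 had 1.72, 5.42 and 4.73 at 12, 24 and 32 h, against 5.66, 6.52 and 5.35, a log2 difference of −0.50. In both, 12 h lay far below every other time. Nrxn2, a presynaptic adhesion protein, had −0.44, Pax2 −0.36 and the region nearest to Aldh1b1, a mitochondrial aldehyde dehydrogenase, −0.34. Pax2 remained lower without 12 h, and the Nrxn2 call was lost then (log2 difference −0.03, adjusted p = 0.331). Kcnj11, Meox1, Cacna2d2, Scn8a and both Otof members were lower too. The Otof members shared a single broad H3K27me3 peak at 16 to 32 h and are not independent.

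The higher members moved less. The region nearest to Arhgef28 had a fold of 2.95, 3.48 and 3.42 at 12, 24 and 32 h, against 3.40, 3.55 and 3.07 at 16, 20 and 28 h, with a log2 difference of 0.20 ± 0.017 after centring (SE, limma adjusted p = 4.50e-08). Nrcam, a neuronal adhesion molecule, had 0.24, Agxt2, a mitochondrial aminotransferase, 0.23, C2cd6 0.21, and the region in Pde10a, a cyclic nucleotide phosphodiesterase, with Gm17087 as its nearest gene, 0.18. Not one of these 5 was called higher without centring, where Arhgef28, Gm17087 and C2cd6 had differences below 0 (−0.03, −0.04 and −0.01). Without the 12 h libraries the Agxt2 call was also lost (log2 difference 0.06, limma adjusted p = 0.135), and C2cd6 had a difference of −0.0084 (adjusted p = 0.804).

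HA-EZH1 had a peak at few member regions, about as often as at all regions. A peak was found in at least 1 list at 19 members (13.9%, against 12.5% of all regions and 19.2% of the other regions in 8 to 10 lists) and in no list at 118. The share of members with a peak was 0.49% to 2.43% at the 6 time points, against 0.58% to 2.41% of all regions and 4.82% to 23.7% of the regions in all 18 Bio-EZH1 lists. Stat5b had the most, with 2 lists of 12 h, 1 of 16 h and 3 of 32 h, and the regions nearest to C2cd6 and Dnajc24 had 5 each. The HA-EZH1 lists held 2347 to 16366 peaks. Fisher's exact test could be made at 7 members and called 0 higher and 0 lower (0% of 1954 regions; at an unadjusted p under 0.05, 0 members in either direction against 42 regions higher and 6 lower), and the test with replicate number as a block called 0 members. Most of these 7 members had a peak in 3 lists, where Fisher's exact test could not call them, so the 0 cannot decide whether presence changed. HA-EZH1 fold was not tested, because 9 regions had a peak in all 18 lists and 0 of them were members.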

How the data were processed

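Chromatin was profiled by ChIP-seq in synchronized C2C12 myotubes, and groups were taken from the sample labels, 9 libraries at 12, 24 and 32 h against 9 at 16, 20 and 28 h per profile. Upstream, the authors used BBDuk for trimming, BWA 0.7.17 for alignment to mm10 and a Drosophila genome, Picard for duplicates, SAMtools 1.7 for filtering and MACS2 2.2.4 to call peaks in each library. Which filter followed the calling is not given in the sources used here. The deposited lists give for each peak a fold enrichment, the ratio of signal to modelled background, together with −log10 p-values and q-values and a score. The largest q-value is 0.05 in the deposited narrow lists and 0.1 in the broad H3K27me3 lists. The authors' lists hold no read counts, so depth is unknown, and no spike-in factor was used here. The 6 HA input samples were not analysed here.

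Peaks on chromosomes 1 to 19 were merged where they overlapped by 1 bp, and a region had a profile where any peak overlapped it. The fold of a region in a library is its highest peak. mm10 is the assembly GRCm38; genes come from GENCODE M21, promoters reach 1000 bp from a TSS, and sequence is from the RefSeq copy of GRCm38. Presence was tested with a two-sided Fisher's exact test (scipy 1.17.1), fold on the log2 scale with limma 3.58.1 in R 4.3.3 over the 6 time points, both adjusted by Benjamini-Hochberg over all regions tested with a threshold of 0.05. limma compares with the spread between libraries of a time point, so a single time point can carry a call. Its p-values do not take in the spread between time points within a group of times. Both tests were run on simulated data with libraries drawn independently and no effect of single time points. The simulations therefore cannot tell how often such effects lead to a call. The member regions, gene lists and tests were chosen with earlier results of these data known. Members were named by rule: the 10 of highest median Bio-EZH1 fold, up to 20 with a protein-coding TSS within 1000 bp, up to 5 called per direction and profile, the 3 longest, those of the gene lists, and those next to the threshold; the members without H3K27me3, those kept in lists of equal length, C1ql4, Slc17a9, Otof, Stx18, Barx1, Scn8a, Cacna1g and Dnajc24 were named after their values were seen. Alternatives were other thresholds, merging, list lengths, centring, the replicate block, and leaving out libraries or time points.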

Additional observations from a re-analysis of the deposited data

How the results depend on the processing

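The number of member regions depended on the lists. It was 19 in lists of equal length, 15 with 9 and 0 lists required, 692 with 7 to 9 and 0 to 2 lists allowed, and 149 to 255 with 1 library left out, the highest without 12 h replicate 1 (255) and 12 h replicate 3 (228). Leaving out a time point, an alternative chosen after seeing the data, gave 758 regions without 12 h, 286 without 16 h, 286 without 20 h, 339 without 24 h, 407 without 28 h and 267 without 32 h, since fewer lists then have to meet the rule. A q-value under 0.01, merging over 200 bp, windows of 500 bp and chromosome X gave 128 to 141, though the windows kept 60 of the 137. Promoter members were 20 when the highest summit itself had to lie within 1000 bp of a TSS (chosen after seeing the data) and 22 to 39 under the other definitions. Members called in SUZ12 fold, 4 as reported, were 7 with a peak in 2 of 3 lists, 2 with the mean fold, 7 without 12 h, 17 without 16 h, 2 without 32 h and 1 to 7 with 1 library left out. There were 2 without 12 h replicate 3, 16 h replicate 1, 24 h replicates 1 or 3, 28 h replicate 2 or any replicate of 32 h. Uncentred, 2 members were higher and 4 lower, with 2.81% and 20.1% of regions. Of 28 alternatives, the Ccr6 call was lost in 18, that of Abcc2 in 14, of Zc3h13 in 8 and of Sel1l3 in 2. Members called in H3K27me3 fold, 80 as reported, were 46 without 12 h and 75 to 81 with 1 library left out. C2cd6 turned to −0.0095 without centring and to −0.0084 without 12 h, Arhgef28 to −0.026 and Gm17087 to −0.040 without centring, and the cause was not tested. Presence tests called 0 members under all 29 alternatives of each profile. Members with a peak in 3 or 15 lists could not be called by Fisher's exact test. At other members the adjustment over all regions tested also left little room for a call. Slc17a9, with an unadjusted p of 0.00905 for SUZ12 (Fisher's exact test), was not called. These counts of 0 therefore cannot decide whether presence changed. Same-numbered libraries did not deviate together (correlations of −0.16 to 0.13 over the 3 profiles), so the numbers were not taken as pairs, and the replicate block left 3 members called in SUZ12 fold, 79 in H3K27me3 fold and 0 in presence. The HA-EZH1 fold test and its alternatives were not run, for lack of members with enough lists. Depth could not be judged from these lists.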
